A study of Rattus norvegicus with 2 samples.

Results

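miR-221 and miR-222 are a pair of microRNAs (miRNAs) processed from neighbouring hairpins of 1 locus, and both were measured in the rat carotid artery without injury and after balloon injury. The members are the features named rno-miR-221 and rno-miR-222, which makes 2 of the 350 rat miRNA features on the array. Per the labels, the tissue was carotid artery from male rats of the Sprague-Dawley strain, with a body weight of 250 g. There were 2 arrays, 1 per group: an artery with no injury, and an artery sampled 10 days after balloon injury, a procedure in which a balloon catheter is drawn through the vessel, removing its endothelial lining and distending the wall. The sources used here do not say how many rats gave RNA to each array or whether the uninjured vessel came from other animals. With 1 array per group there is no replicate error, no test and no p-value, and every difference below compares these 2 arrays. The RNA came from whole artery, so fewer cells of a type and less RNA per cell cannot be told apart.

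A miRNA guides a silencing complex to messenger RNAs mainly through its seed, bases 2 to 8, and lowers the output of the messages that pair with it. miR-221 and miR-222 are known repressors of the cell-cycle inhibitors p27 (Cdkn1b) and p57 (Cdkn1c) and of the receptor Kit. In vascular smooth muscle they are known to favour division, while in endothelial cells they are known to restrain growth and migration. The arrays measured miRNAs only, so none of these targets was measured.

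The mature sequences are shown because the shared seed is what makes the members 1 family. They were taken from RefSeq on the GRCr8 assembly, with the seed in capitals. The array names of the members carry no arm. Under the older naming convention the plain names of these 2 stand for the arm now called 3p, which is the one shown.
miR-221-3p: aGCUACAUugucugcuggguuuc
miR-222-3p: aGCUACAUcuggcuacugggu
The first 8 bases of both are the same, so the seed GCUACAU and its pairing partner AUGUAGC are identical. Beyond that start the sequences part: miR-221-3p has 23 bases and miR-222-3p has 21, their edit distance (substitutions, insertions and deletions) is 6, and the longest run shared after the common start is CUGGGU, of 6 bases. Of 693 mature rat miRNA names in the RefSeq table, these 2 alone carry that seed. Of the 302 other array miRNAs whose names could be matched to that table, 0 carry it on either arm, and 0 share bases 2 to 7. The nearest other mature sequence on the array was miR-23a-3p for miR-221, at an edit distance of 8, and miR-23a had a log2 ratio of 0.09 between the arrays. For miR-222 the nearest others were an arm each of miR-216a and miR-338, also at 8. miR-216a was detected on neither array. The matching arm of miR-338 is the 5p arm. The array has features named miR-338 and miR-338*, and which of them stands for that arm was not settled here. miR-338 had a log2 ratio of -0.85, and miR-338* had signals of 1.60 in the uninjured and 1.36 in the injured artery. A further 46 array names were not matched to the table. Whether other miRNAs bind the probes was not tested, and the sources used here do not say how far the probes separate the 2 members from each other.

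The hairpins show how the mature arms sit in the precursors, with the 3p arm in capitals.
Mir222 hairpin: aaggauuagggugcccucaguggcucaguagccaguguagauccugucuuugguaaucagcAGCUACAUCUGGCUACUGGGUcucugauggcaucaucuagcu
Mir221 hairpin: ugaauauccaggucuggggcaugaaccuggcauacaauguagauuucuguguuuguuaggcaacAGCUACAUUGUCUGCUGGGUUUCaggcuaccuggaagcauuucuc
On GRCr8 Mir222 lies at chrX:6022621-6022723 and Mir221 at chrX:6023182-6023290, both on the + strand, with 458 bases between them. In the RefSeq gene table both hairpins fall within the spans of 2 long non-coding RNA genes, LOC120099382 and LOC120099384; whether they are exonic or intronic there was not analysed. The array had no feature named for the other arm of either hairpin.

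Both miRNAs were detected on both arrays and both were higher in the injured artery. Signals are linear intensities as deposited, and a flag of 1 was read as detection. miR-221 had a signal of 78.9 in the uninjured artery and 206 in the injured artery. miR-222 had a signal of 59.5 in the uninjured artery and 113 in the injured artery. The injured artery was the higher of the 2 arrays for each. All 4 values stood clear of the undetected miRNAs: miR-221 was 8.92 times the highest undetected signal of the uninjured array (8.84) and 34.5 times that of the injured array (5.98), and miR-222 was 6.72 and 18.9 times those values. The 2 signals on 1 array come from different probes, so their order is not an order of abundance.

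**Figure D1:**
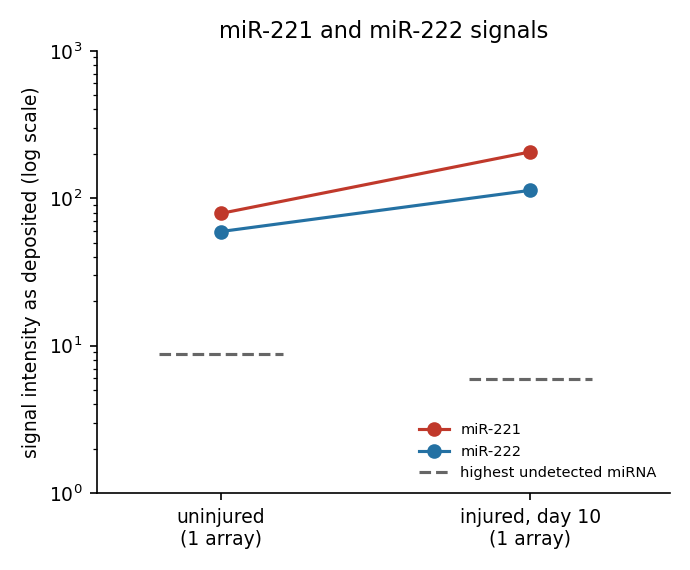
Deposited signal intensity (log axis) of miR-221 and miR-222 on the uninjured and the injured array, 1 array each; lines join the values of 1 miRNA, and dashed bars mark the highest signal of an undetected miRNA on that array. Both miRNAs are higher on the injured array, miR-221 from 78.9 to 206 and miR-222 from 59.5 to 113, and all 4 points lie above the dashed bars.

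To set the arrays on 1 scale, the log2 signals were aligned at the 75th percentile of the 158 miRNAs detected on both arrays, which raised every log2 ratio by 0.09. On this scale miR-221 was 2.78-fold higher after injury, a log2 ratio (injured minus uninjured) of 1.47. miR-222 was 2.02-fold higher, a log2 ratio of 1.02. Both members, 2 of 2, were thus at least 2-fold higher, a descriptive threshold that 20 of the 158 miRNAs passed in this direction (12.7%) and 6 passed in the other (3.8%). The median log2 ratio of the 158 was 0.14 and the quartiles were -0.14 and 0.58, so both members lay above the upper quartile. miR-222 only just reached 2-fold, whereas miR-221 did not lie near the threshold on this scale.

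In the order of log2 ratios miR-221 stood 8th and miR-222 stood 20th of 158, with 11 miRNAs between them. Directly above miR-221 came miR-20a (1.73) and miR-223 (1.67), and directly below it miR-93 and miR-379 (1.41 and 1.40). Around miR-222 stood miR-136 (1.07) and miR-301a (1.05) above and miR-205 (0.96) and miR-193 (0.93) below. The gaps between these neighbours are small and have no replicate error to be set against, so the order among them is a description. miR-222 was the last miRNA in the order to reach 2-fold.

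**Figure D2:**
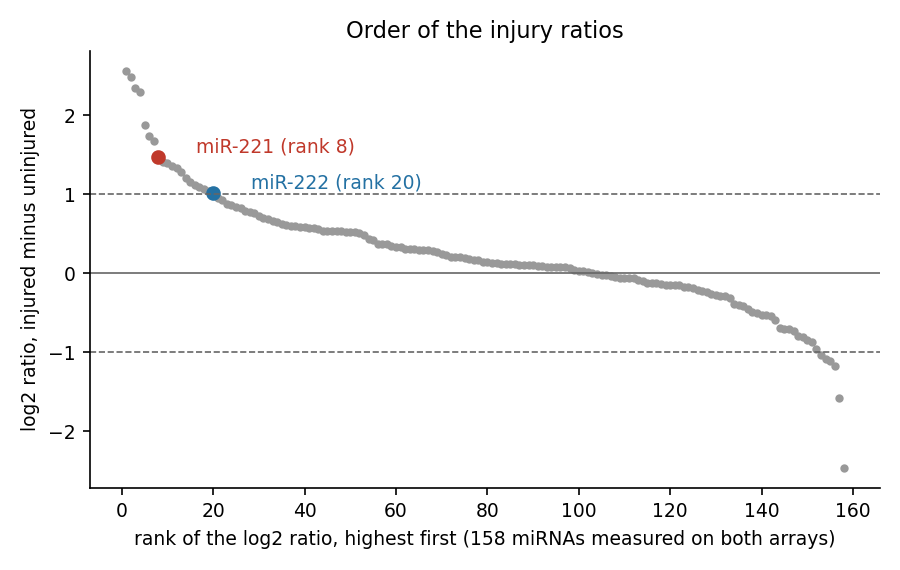
Log2 ratios (injured minus uninjured, 1 array each) of the 158 miRNAs detected on both arrays, in order from the highest; dashed lines mark 2-fold and the solid line no difference. miR-221 stands at rank 8 with 1.47 and miR-222 at rank 20 with 1.02, just above the dashed line.

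How large the difference is depended on how the arrays were aligned, and its direction did not in any alternative tried. Over 10 alternatives the log2 ratio of miR-221 ran from 0.88 to 1.39 (1.84-fold to 2.61-fold), and it was at least 2-fold higher in 8 of them. That of miR-222 ran from 0.43 to 0.93 (1.34-fold to 1.90-fold) and reached 2-fold in 0 of them. The scaling used here gave both members their highest ratios. The lowest came from aligning the 6 control features detected on both arrays. Before scaling these 6 features were themselves brighter on the injured array, by log2 ratios of 0.31 to 0.96 (median 0.50), while the unscaled log2 ratios were 1.39 for miR-221 and 0.93 for miR-222. miR-221 thus lay above all 6 control features, and miR-222 above 5 of the 6. On that alignment 7 of the 158 passed 2-fold upward (4.43%) and 23 downward (14.6%), against 20 and 6 on the scale used here.

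Across the alternatives miR-221 stood between 7th and 10th and miR-222 between 17th and 26th; an alignment that shifts all ratios alike cannot change a rank, so the changes came only from quantile normalization, the offset, the stricter detection rule and the brightness curve. In the last of these, chosen after seeing the data, a lowess curve of the log2 ratio on mean log2 signal was subtracted. The curve stood at 0.24 for miR-221 and 0.30 for miR-222, which means that miRNAs of like brightness were already higher on the injured array before scaling, and left log2 ratios of 1.15 and 0.63. In the authors' deposited table, which holds unscaled ratios, miR-221 is listed at 2.61 and miR-222 at 1.90.

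**Figure D3:**
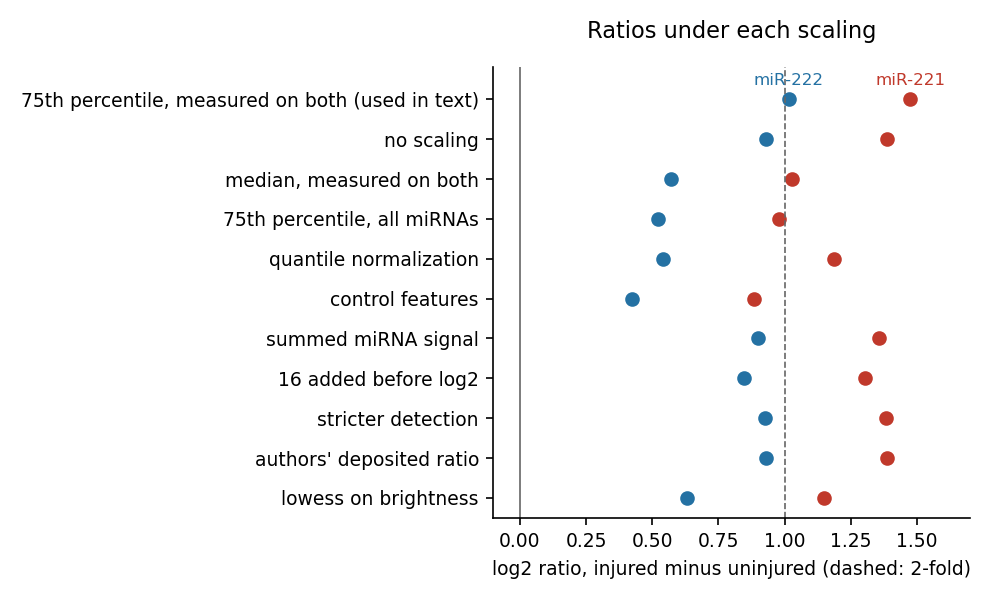
Log2 ratios (injured minus uninjured) of miR-221 and miR-222 under the scaling used in the text (top) and 10 alternatives; the dashed line marks 2-fold and the solid line no difference. Every point lies to the right of 0, miR-221 between 0.88 and 1.47 and miR-222 between 0.43 and 1.02.

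The ratios of the 2 members were not equal, although they come from 1 locus. The log2 ratio of miR-221 exceeded that of miR-222 by 0.46, a factor of 1.37, which no uniform scaling can move; it was 0.65 with quantile normalization and 0.52 with the brightness curve. Of the 158 miRNAs detected on both arrays, 126 had a hairpin position. To set this gap beside other miRNA clusters, every pair of these with hairpins within 10 kb on 1 strand of GRCr8 was taken. This comparison was added after the members' values were known, and clusters with miRNAs outside the 126 can be missing or incomplete. There were 63 such pairs besides the members, formed from 59 miRNAs, so 1 miRNA can stand in several pairs. Their absolute differences in log2 ratio had a median of 0.44 and quartiles of 0.15 and 0.70. The difference was larger in 30 of the 63 pairs and smaller in 33, so the gap between miR-221 and miR-222 lay in the middle of this spread. The spread is not purely one within single loci. Some of these miRNAs, such as miR-24 on chromosomes 17 and 19, have hairpins in more than 1 cluster. Some pairs also join a miRNA with a starred name to one without. Without the pairs on chromosome 6, the median of the remaining 46 was 0.33, below the members' gap of 0.46.

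Few neighbouring miRNAs were both at least 2-fold higher on the scale used here. For miR-221 with miR-222 this held on that scale only, as miR-222 reached 2-fold in 0 of the 10 alternatives. Besides them it held for 6 of the 63 pairs. All 6 were formed among miR-17-5p, miR-19b, miR-20a and miR-92a, of clusters abundant in dividing cells. These pairs were placed on chromosome 15 or X, and the signal of a miRNA with hairpins on both cannot be split by locus. Those with miR-17-5p rest on an uninjured signal of 7.78, under the highest undetected signal of that array (8.84). The other pairs went in either direction. Of the 63 pairs besides the members, 46 had ratios of the same sign on the scale used here. Others had opposite signs, such as miR-188 (-0.88) and miR-532-5p (1.16). miR-25 and miR-93 stood at 0.69 and 1.41 on the log2 ratio scale, miR-29a and miR-29b at 0.24 and 0.54, and miR-23a and miR-24 at 0.09 and 0.09. The smooth muscle miR-143 stood at -0.19 and miR-145 at -0.55.

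**Figure D4:**
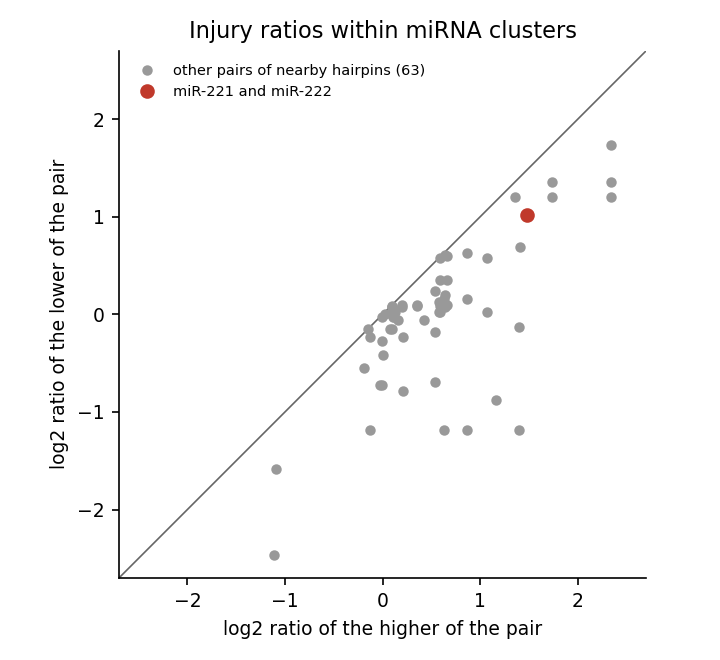
Log2 ratios (injured minus uninjured) of the 2 miRNAs of each pair with hairpins within 10 kb on 1 strand, among the 126 miRNAs with a hairpin position. The higher ratio is on the horizontal and the lower on the vertical axis, and the line marks equal ratios. miR-221 and miR-222 (1.47 and 1.02) lie near the upper right, below the line by a distance that 30 of the 63 other pairs exceed.

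The hairpins lie on chromosome X, where most other miRNAs detected on both arrays also had a positive log2 ratio on the scale used here. Of 42 other array miRNAs with a hairpin there, 15 were detected on both arrays, 4 on the injured array only and 23 on neither. Among all 350 miRNA features these classes held 158, 26 and 158. Among the 15 the median log2 ratio was 0.53 (0.14 for all 158), and 12 were above 0 (103 of all 158). Of the 15, 5 were at least 2-fold higher (against 12.7% of all 158) and 0 at least 2-fold lower (against 3.8% of all 158). Of these 15, 4 also have a hairpin elsewhere; for the other 11 the median was 0.29 and 2 were at least 2-fold higher, against the same 12.7%: miR-223 (1.67) and miR-532-5p (1.16). The lowest was miR-188 at -0.88. The counts above 0 and past 2-fold hold for the scale used here. With the control features aligned every ratio was lower by the same amount, and the median of all 158 was -0.45.

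By the pair of scaled log2 signals on the 2 arrays, the miRNAs nearest to miR-221 were miR-19b (Euclidean distance of 0.31), miR-223 (0.35) and miR-106b (0.48). miR-223 is a miRNA of neutrophils and macrophages, with signals of 86.2 and 259. miR-19b had signals of 71.0 and 171. Nearest to miR-222 were miR-301a (0.24, with signals of 66.1 and 128), miR-25 (0.24) and miR-347 (0.33). miR-221 and miR-222 lay 0.96 from each other, farther than any of these. This likeness rests on 2 arrays and on probe brightness as well as on the ratio.

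Other miRNAs known to repress inhibitors of the p21, p27 and p57 family were mostly higher as well. This list was chosen with earlier results of these data known. Of 8 on the array, 6 were detected on both arrays. Each of the 6 lay above 0 on the scale used here (103 of all 158 did), although miR-181a was at -0.03 without scaling. Of the 6, 3 were at least 2-fold higher (against 12.7% of all 158) and 0 lower (against 3.8% of all 158), with a median of 1.14. The 3 were miR-17-5p at 5.06-fold, miR-20a at 3.32-fold and miR-93 at 2.65-fold, known repressors of p21. miR-106b, of the same seed family, had a log2 ratio of 0.87, and miR-25, a known repressor of p57, 0.69. The fold of miR-17-5p has a weak base: its signal in the uninjured artery was 7.78, and undetected miRNAs reached 8.84 there. miR-181a, a known repressor of p27, was at 0.06. The further p27 repressor miR-196a and the p57 repressor miR-92b were detected on neither array. With the control features aligned the median of the 6 was 0.55. Stricter detection dropped miR-17-5p and gave the list a median of 0.78. The 4 repressors of p21 in this list resemble each other in sequence, and how well their probes tell them apart was not tested.

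The other miRNAs of the Kit repressor list on the array lay on opposite sides of 0. miR-494 was 2.27-fold lower in the injured artery (signals of 1111 and 461), and miR-193 had a log2 ratio of 0.93 (signals of 190 and 341). miR-193a and miR-193b were not listed as separate features.

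The smooth muscle proliferation list, without miR-221 and miR-222, came from what is generally known of arteries after injury or in culture, and was chosen with earlier results of these data known. Of its 9 members 8 were detected on both arrays, of which 4 were at least 2-fold higher (against 12.7% of all 158) and 0 lower (against 3.8% of all 158). The list's median log2 ratio was 0.95 (0.14 for all 158). miR-146b (2.565) and miR-21 (2.29) exceeded miR-221, while miR-31 (1.28) and miR-214 (1.12) lay between miR-221 and miR-222. The remaining members stood below miR-222, from miR-146a (0.77) down to miR-26a (-0.08). Aligning the arrays on their control features gave this list a median of 0.35.

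**Figure D5:**
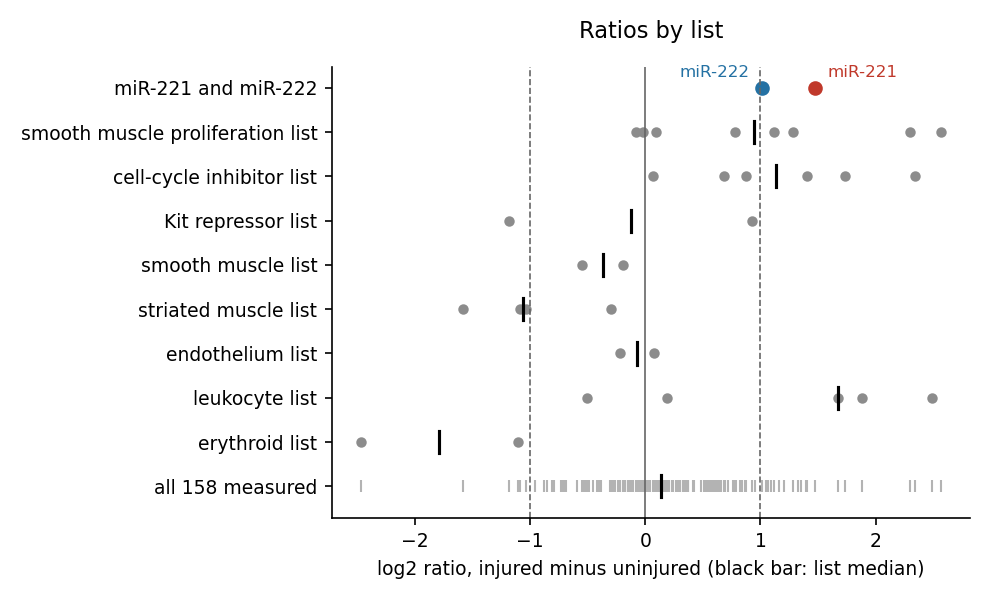
Log2 ratios (injured minus uninjured) of miR-221 and miR-222, of list members detected on both arrays and of all 158 miRNAs. The epithelium and nerve lists are not drawn. Black bars are medians, dashed lines mark 2-fold and the solid line no difference. The median is 1.14 for the cell-cycle inhibitor list, 1.67 for the leukocyte list, -0.07 for the endothelium list and -1.79 for the erythroid list.

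Markers of several cell types differed between the same 2 arrays. The leukocyte list had 5 members on the array, all detected on both arrays, with a summed signal of 241 in the uninjured and 515 in the injured artery. Of the 5, 3 were at least 2-fold higher (against 12.7% of all 158) and the median log2 ratio was 1.67. The 3 were miR-223 and both arms of the miR-142 hairpin, while miR-342-3p (0.19) and miR-150 (-0.50) were not. The erythroid miR-451 and miR-144 had a summed signal of 677 in the uninjured and 125 in the injured artery, and both were at least 2-fold lower (against 3.8% of all 158, and 14.6% with the control features aligned). miR-126 and miR-126*, the endothelial markers, had a summed signal of 626 in the uninjured and 615 in the injured artery, with log2 ratios of 0.08 and -0.22. The smooth muscle miR-143 and miR-145 were detected on both arrays, with a summed signal of 17749 in the uninjured and 14465 in the injured artery, so the defining markers of the labelled tissue were present. The striated muscle list had a summed signal of 432 in the uninjured and 200 in the injured artery, with 3 of the 4 members detected on both arrays at least 2-fold lower, against the same shares, and miR-206 and miR-208 detected on neither array. Of the 6 nerve miRNAs 5 were detected on the uninjured array only and 1 on the injured array only. Among all 350 miRNA features these classes held 8 and 26. The 5 had signals of 5.77 to 26.6 on the uninjured array, whose highest undetected signal was 8.84. Of the 5 epithelial miRNAs, 4 were detected on neither array. miR-205 was detected on both, at a log2 ratio of 0.96, from an uninjured signal of 11.4, not far above 8.84. The part of leukocytes, blood, nerve or any other cell type in the higher miR-221 and miR-222 signals was not tested, and with 1 array per group any difference between the 2 hybridisations and the injury cannot be told apart.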

How the data were processed

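Total RNA of uninjured and of injured carotid artery was labelled with Cy3 and hybridised to 1-colour miRNA arrays, 1 array per group (per the labels' protocols). Each deposited array file holds 1 linear signal intensity and 1 flag for each of 350 miRNA and 22 control features. Scanner software, background subtraction and normalization were not given in the sources used here. A value of exactly 1 is listed for 109 miRNAs per array, and some undetected miRNAs lie under 1. The deposited value table holds a ratio per miRNA, which matched injured over uninjured intensity for 349 names (relative tolerance 1e-05).

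A miRNA was measured where its flag was 1; the files do not define the flag. Log2 intensities were aligned at the 75th percentile of the 158 miRNAs measured on both arrays, with no offset. The scaling was tested on simulated data. These held no noise and differed by a constant factor, with as many miRNAs raised as lowered. They cannot show how the scaling performs where the changes are unequal. Alternatives were no scaling, medians, the 75th percentile of all miRNAs, quantile normalization, control features, summed signal, an offset of 16, stricter detection, the deposited ratio and a lowess curve (fraction 0.5). Named miRNAs were the members, for each the 3 nearest in log2 signals and 2 on either side in ratio order, the list members, and those nearest in sequence. Others named in the cluster and chromosome X comparisons were chosen after their values were seen. Of 350 array names, 304 matched the RefSeq miRNA table by name. The members and lists were chosen with earlier results of these data known. Python 3.11.15, pandas 2.3.3 and statsmodels 0.14.6 were used.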

Additional observations from a re-analysis of the deposited data

How the results depend on the processing

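Both members kept a positive log2 ratio under all 10 alternatives, and the difference between them kept its sign. The scaling used gave the highest ratios, so 2-fold calls could only be lost. miR-221 fell under 2-fold with the 75th percentile of all miRNAs (log2 ratio of 0.98) and with control features aligned (0.88). miR-222 was under 2-fold in each alternative: 0.93 without scaling and in the deposited table, 0.57 on aligned medians, 0.52 on the 75th percentile over all miRNAs, 0.54 with quantile normalization, 0.43 with control features, 0.90 with summed signals, 0.85 with 16 added, 0.925 with stricter detection and 0.63 with the lowess curve. The number of members at least 2-fold higher was therefore 0 in the first pair of settings named for miR-221 and 1 in the other 8. In the order medians, 75th percentile of all miRNAs, quantile, control features and 16 added, at least 2-fold higher counts were 8, 7, 12, 7 and 13 and at least 2-fold lower counts 16, 19, 11, 23 and 2. The cell-cycle inhibitor median was under 1 in the same 5 settings, at 0.69, 0.64, 0.75, 0.55 and 0.90, at 0.78 with stricter detection, which leaves out miR-17-5p, and at 0.86 with lowess. The cause of these shifts was not tested. No alternative measures replicate error, and leaving out a replicate was not possible with 1 array per group. No paired analysis was possible because each group held 1 array.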
